A study of Homo sapiens with 24 samples.

Results

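The genes described here are solute carriers, the membrane transporters whose symbols start with SLC and a family number, other than the carriers for amino acid exchange. They were chosen by name from an array study of R406 in acute myeloid leukemia (AML) cells. Of 12165 genes with a probe set of a single symbol, 239 were solute carriers. The families SLC1, SLC3, SLC7, SLC38 and SLC43 and the genes SLC2A1, SLC16A1 and SLC16A3 were set aside, which left 209 genes. The 103 genes whose intensity averaged 20 or more over all 24 arrays are described below, and the other 106 lay under that level. A gene with several probe sets was represented by the one with the highest mean, and 37 of the 103 genes had more than 1 probe set. The cut at 20 used each gene's level and not its change, although a gene high in only some groups could pass through them. The members were nevertheless chosen with earlier results of these data known. Of the 103 genes, 84 averaged 20 or more in each of the 8 groups, and the other 19 in some groups, SLC35D2 among them in 1 cell line only. SLC16A5, SLC46A3 and SLC47A1 would average under 20 without their highest group, so their changes that involve it are given as a description with no p. These 3 genes nevertheless stay in all counts and shares of the 103 genes below and in the plots of them. No count that leaves out these 3 alone was made.

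R406, the compound into which the prodrug fostamatinib is converted, blocks the kinase SYK along with other kinases. Human AML cells of 4 established lines were kept for 24 h in 4 µM R406 or in its vehicle DMSO, and 3 arrays of each line and treatment were made, 8 groups in all. The dose follows the submitters' protocol, since their series text writes mM in place of µM. MOLM-14 is monocytic and carries an MLL fusion and an internal tandem duplication of FLT3, U937 is also monocytic, HL-60 comes from promyelocytes and KG-1 from myeloblasts. The labels name no other agent and no engineered allele in any group. Each line stands for 1 patient's leukemia, so a difference between lines cannot be told apart from other properties of that patient's cells. The labels speak of treatment in triplicate without saying whether the cultures were separate, so the p-values below measure the spread between these samples, which may be technical. Values are of whole cultures, in which fewer cells with a transcript and less transcript per cell cannot be told apart.

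The arrays held intensities of 3.41 to 12686, their medians lay between 19.1 and 21.4, and precision is limited by how many arrays there are. Only some markers fitted the line labels. CD34 averaged 1000 under R406 and 613 with DMSO in KG-1 and 14.8 to 18.1 in the other 6 groups, and MPO was high in HL-60, with 4981 under R406 and 6416 with DMSO. CD14 reached 853 under R406 and 279 with DMSO in HL-60 but was 7.20 to 7.80 in both monocytic lines. The summed level of 3 monocytic markers was 883 under R406 and 312 with DMSO in HL-60 and 223 and 51.4 in MOLM-14, and that of 4 granule markers was 1186 under R406 and 4405 with DMSO in HL-60 and 4576 and 7469 in MOLM-14. The monocytic sum of HL-60 rose through CD14, since CSF1R was 20.5 under R406 and 19.0 with DMSO there and CD36 was 8.77 and 13.5. Progenitor markers, 3 in all, summed to 3738 under R406 and 2150 with DMSO in KG-1 and to 178 and 74.3 in MOLM-14, with KIT at 974 and 228 in KG-1 and at 144 and 17.9 in MOLM-14. The MOLM-14 sum rose through KIT alone, since GATA2 was 18.3 under R406 and 39.5 with DMSO there and CD34 was 15.6 and 17.0. The 4 myeloid markers summed to 322 under R406 and 195 with DMSO in KG-1. These markers moved with treatment in the lines described below, and their part in the carrier values was not tested. The summed level of 8 markers of other cell types (B cell, T cell, erythroid, fibroblast and epithelial) lay between 85.1 and 259 in all 8 groups, and the highest of them was KRT18 in MOLM-14, at 131 under R406 and 176 with DMSO. KG-1 R406 replicate 2 stood apart from its group, with an SD of 0.27 (log2) from the other arrays of its group, against 0.13 to 0.24 for all other arrays. KG-1 values that it moves most are therefore also given without it. The 3' to 5' ratio of the ACTB control probe sets differed between R406 and DMSO by 0.34 (log2) in MOLM-14, -0.04 in U937, -0.13 in HL-60 and 0.12 in KG-1 (exact two-sided permutation p = 0.1, 0.6, 0.1 and 0.1, where 0.1 is the smallest p that 3 against 3 arrays can give). The lines with the most changed carriers thus had the higher ratio under R406, and the part of RNA quality in these changes was not tested.

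Solute carriers move nutrients, ions and metabolites across membranes, most as facilitative carriers or as symporters and antiporters driven by an ion gradient. Some families sit in the plasma membrane and set the uptake of sugars, vitamins, nucleosides and metals. Others sit in organelles: the SLC25 family in the inner membrane of mitochondria, the SLC35 family in the Golgi and endoplasmic reticulum, and carriers such as SLC17A5 in lysosomes. In blood cells they matter for proliferation, which needs folate, nucleosides and iron, and for drug entry, since antifolates and nucleoside analogues use SLC19A1 and SLC29A1.

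Changes are given as the difference of mean log2(intensity + 1), R406 minus DMSO, with its standard error (SE) from 1 limma model of all 24 arrays. A gene is called higher or lower where its p, adjusted over all 12165 genes by the method of Benjamini and Hochberg, lies under 0.05. Values of a gene's further probe sets come from a like fit of all 19724 probe sets with a single symbol, adjusted over those. In MOLM-14, 33 of the 103 carriers were called higher under R406 and 44 lower, against 31.1% and 25.0% of all genes tested and 37.3% and 38.6% of the 7244 genes with a mean of 20 or more. U937 had 3 carriers higher and 13 lower, against 6.12% and 5.43% of all genes and 9.64% and 8.32% of those at 20 or more. HL-60 had 5 higher and 18 lower, against 7.19% and 7.97% of all genes and 11.2% and 12.6% of those at 20 or more. These higher calls are few and depend on the fit, numbering 8 in U937 when its own arrays were fitted alone and 2 to 3 in HL-60 without any 1 of its 6 arrays. KG-1 had 27 higher and 40 lower, against 23.6% and 20.9% of all genes and 34.8% and 32.5% of those at 20 or more. Genes kept through their highest group are among these calls. SLC16A5 and SLC46A3 count as higher in MOLM-14, SLC46A3 as higher in KG-1 and SLC47A1 as lower in MOLM-14. As shares of the 103 carriers, the calls came to 32.0% higher and 42.7% lower in MOLM-14, 2.91% and 12.6% in U937, 4.85% and 17.5% in HL-60, and 26.2% and 38.8% in KG-1. The share called higher lay under that of genes at 20 or more in all 4 lines, and the share called lower above it, with no test of these differences. The median log2 change of the carriers was -0.09 in MOLM-14, -0.06 in U937, -0.06 in HL-60 and -0.09 in KG-1, against 0.07, 0.00, -0.00 and 0.02 over all genes and -0.00, 0.01, -0.00 and 0.03 over genes at 20 or more. Counted by arrays alone, the R406 values lay all above the DMSO values for 34 carriers and all below for 46 in MOLM-14 (31.6% and 26.1% of all genes), for 15 and 29 in U937 (18.2% and 15.8%), for 16 and 31 in HL-60 (15.9% and 16.9%), and for 28 and 41 in KG-1 (26.6% and 23.2%). Of genes at 20 or more, the shares above and below were 37.9% and 39.7% in MOLM-14, 26.0% and 22.4% in U937, 22.8% and 24.1% in HL-60, and 36.4% and 33.9% in KG-1.

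**Figure D1:**
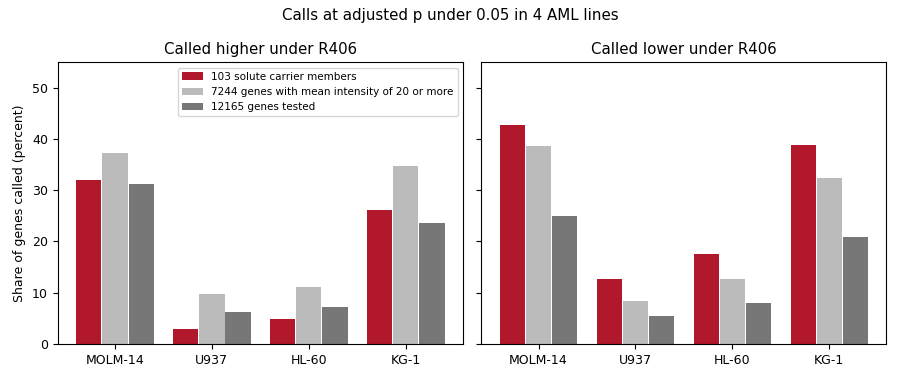
Share of genes called at an adjusted p under 0.05, in percent, higher (left) or lower (right) under R406 in each line, for the 103 solute carriers, the 7244 genes with a mean intensity of 20 or more and all 12165 genes tested. The red bars of the carriers are below the light grey bars on the left and above them on the right.

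Over the mean of the 4 lines, 30 carriers were higher and 45 lower, where 29.1% and 24.0% of all genes and 39.2% and 36.8% of genes at 20 or more were. Without KG-1 R406 replicate 2, 61 of the 67 KG-1 calls remained, 3 others were gained and none changed sign. The lost calls were those of SLC11A2, SLC25A20, SLC25A23, SLC25A28, SLC66A2 and SLC67A2. The effect of R406 differed between lines for 74 of the 103 carriers by a moderated F test, against 54.9% of all genes and 79.2% of those at 20 or more. In MOLM-14 and KG-1, 4 of 5 nucleoside or nucleotide carriers and 4 of 5 vitamin carriers were lower in each, and 6 and 5 of 9 ion carriers were higher. These classes were not tested against each other. Counts by class below are to be read against the shares of genes at 20 or more given for each line. The partner lists were not filtered by level, so their counts are to be read against the shares of all genes as well.

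**Figure D2:**
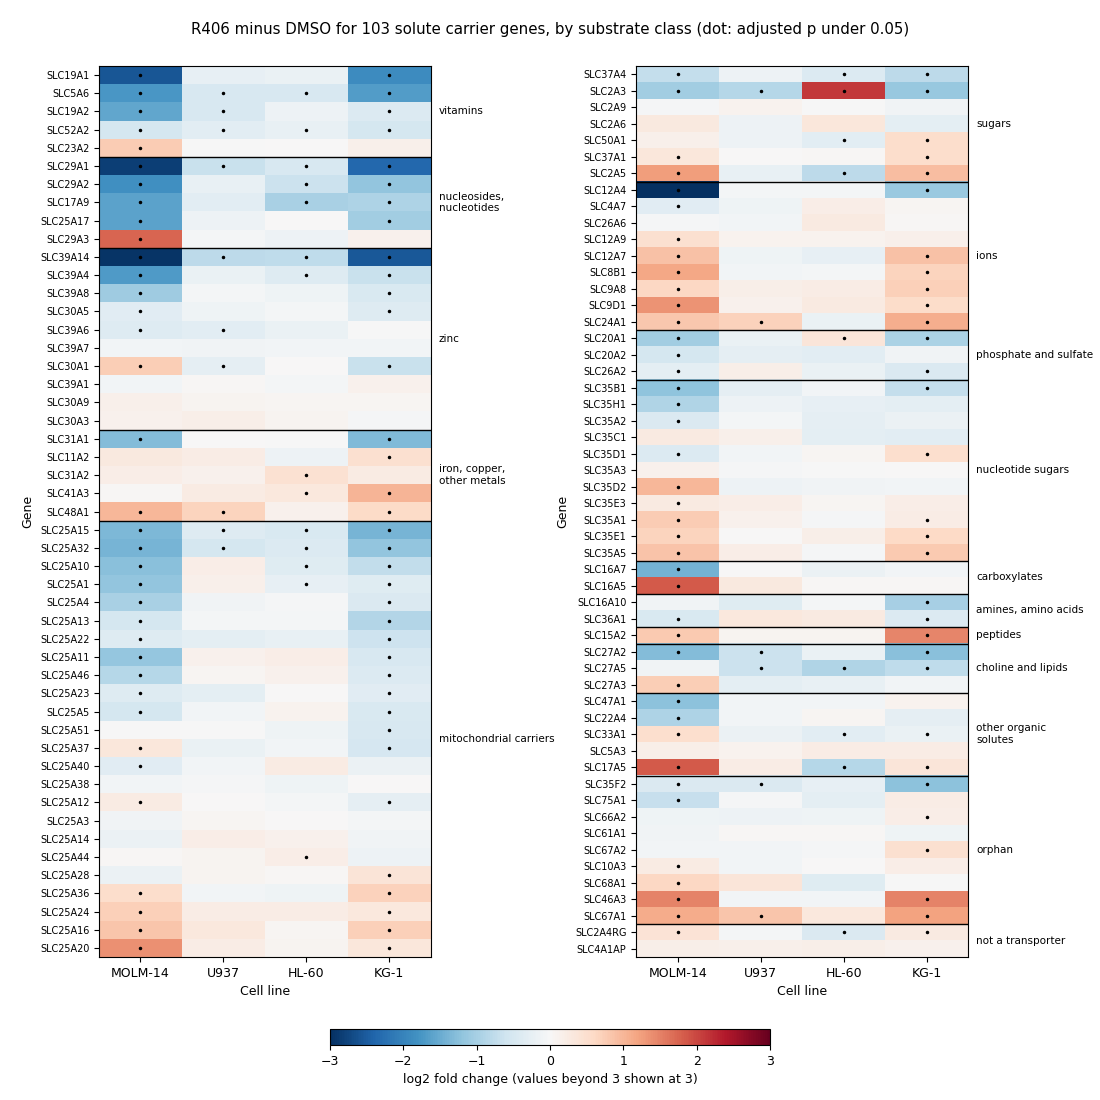
Log2 fold change, R406 minus DMSO, of each of the 103 carriers (rows, by substrate class) in the 4 lines (columns), with a dot for an adjusted p under 0.05. The same rule for dots applies to SLC16A5, SLC46A3 and SLC47A1, which were kept through their highest group. Blue cells gather in the vitamin rows and the nucleoside and nucleotide rows of MOLM-14 and KG-1, and SLC2A3 is blue in 3 lines and red in HL-60.

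Nucleoside and nucleotide carriers numbered 5, of which 4 were lower and 1 higher in MOLM-14, 4 lower in KG-1, 3 lower in HL-60 and 1 lower in U937. SLC29A1 (ENT1) is the main equilibrative nucleoside carrier of the plasma membrane and brings cytarabine and other nucleoside analogues into leukemia cells. In MOLM-14 its intensity was 9.81, 9.74 and 12.7 under R406, against 84.1, 84.0 and 78.9 with DMSO. In KG-1 it was 12.7, 10.6 and 14.0 under R406, against 63.8, 60.6 and 77.3 with DMSO. All R406 arrays of both lines lay under the lowest array median, and all DMSO arrays well above the highest. The log2 fold change was -2.83 ± 0.12 (SE) in MOLM-14 (adjusted p = 4.45e-15) and -2.34 ± 0.12 in KG-1 (adjusted p = 4.65e-13), or -2.24 without KG-1 R406 replicate 2. U937 had 82.0, 78.8 and 83.1 under R406, against 136, 122 and 129 with DMSO, a smaller gap with no overlap. HL-60 had 62.0, 58.4 and 44.5 under R406, against 72.1, 83.6 and 72.9 with DMSO, again with no overlap. Their log2 fold changes were -0.66 (adjusted p = 8.07e-04) in U937 and -0.47 (adjusted p = 0.00821) in HL-60. The HL-60 call was lost without HL-60 DMSO replicate 2 (adjusted p = 0.0524) or R406 replicate 3 (adjusted p = 0.0794). A second SLC29A1 probe set, of mean 37.7, was called lower in all 4 lines by less. Its log2 fold changes were -1.08 in MOLM-14, -0.36 in U937, -0.40 in HL-60 and -0.96 in KG-1.

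The related carrier SLC29A2 (ENT2), which also takes up nucleobases, measured 9.93, 11.4 and 17.3 under R406, against 48.4, 48.7 and 46.0 with DMSO in MOLM-14. The KG-1 arrays read 23.0, 23.9 and 22.5 under R406, against 58.4, 49.4 and 53.6 with DMSO. The treatment groups were apart in both lines, with log2 fold changes of -1.85 (adjusted p = 4.26e-10) and -1.18 (adjusted p = 8.25e-07). It fell in HL-60 too, by a log2 fold change of -0.63 (adjusted p = 0.00557), and was dim in U937, with group means of 8.30 under R406 and 9.67 with DMSO. SLC17A9, the vesicular carrier that loads ATP into secretory vesicles and lysosomes, was lower in HL-60, at 52.9, 59.6 and 57.7 under R406, against 111, 114 and 110.0 with DMSO. Its log2 fold change of -0.96 (adjusted p = 1.57e-06) was the lowest of the 103 carriers in that line, and it was also lower in MOLM-14 (-1.60) and KG-1 (-0.92). SLC25A17, which carries coenzyme A and related nucleotides in peroxisomes, fell in MOLM-14 (-1.60, adjusted p = 2.63e-12) and in KG-1 (-1.03, adjusted p = 8.54e-09), with values of -0.16 in U937 and 0.00 in HL-60 that did not pass. SLC29A3 (ENT3), the lysosomal and mitochondrial nucleoside carrier, went the other way. Its MOLM-14 arrays read 169.6, 145 and 151 under R406, against 49.0, 40.1 and 46.8 with DMSO, with no overlap. The log2 fold change was 1.76 ± 0.11 in MOLM-14 (adjusted p = 7.30e-12) and did not pass in U937 (-0.06), HL-60 (-0.16) or KG-1 (0.13), and the difference between MOLM-14 and each other line did (adjusted p = 4.14e-09 against U937, 1.45e-09 against HL-60 and 5.79e-08 against KG-1).

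The kinases and other enzymes that use these substrates were listed as partners. Of 9 measured salvage genes, 3 were higher and 4 lower in MOLM-14, 1 was lower in U937, 2 were higher and 2 lower in HL-60, and 3 were higher and 4 lower in KG-1. In MOLM-14, 33.3% higher and 44.4% lower lay near the 37.3% and 38.6% of genes of like level, and the KG-1 shares were the same against 34.8% and 32.5%. Thymidine kinase TK1 fell in MOLM-14 (-2.81, adjusted p = 2.89e-12) and KG-1 (-0.90, adjusted p = 1.40e-04). The uridine-cytidine kinase UCK2 fell as well, with log2 fold changes of -2.07 in MOLM-14 and -1.91 in KG-1. Deoxycytidine kinase DCK, which activates cytarabine, rose in MOLM-14 (0.24, adjusted p = 0.0123), HL-60 (0.27, adjusted p = 0.0224) and KG-1 (0.48, adjusted p = 2.58e-05). Adenosine deaminase ADA rose in MOLM-14 (adjusted p = 6.28e-15) and KG-1 (0.52, adjusted p = 4.86e-07) and fell in HL-60 (-1.05, adjusted p = 1.82e-10).

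**Figure D3:**
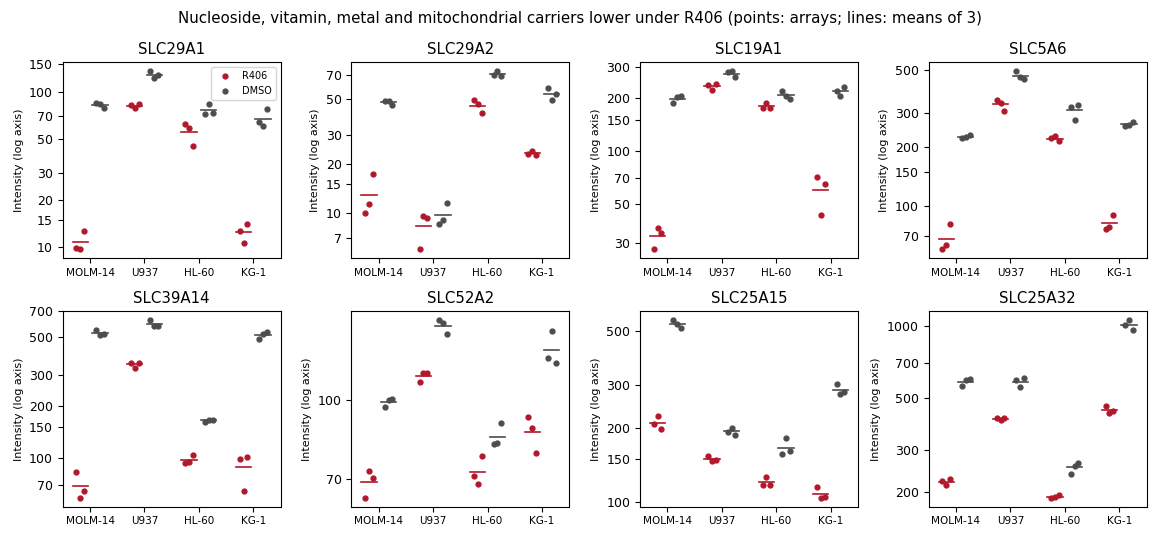
Intensity on a log axis of 8 carriers in each line, R406 (red) left of DMSO (grey); each point is 1 array and each bar the mean of 3. SLC29A1, SLC5A6, SLC39A14, SLC52A2, SLC25A15 and SLC25A32 have all R406 points below all DMSO points in each line.

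Vitamin carriers numbered 5. In MOLM-14, 4 were lower and 1 higher, in U937 3 were lower, in HL-60 2 and in KG-1 4. SLC19A1, the reduced folate carrier and the entry route of methotrexate, read 27.8, 36.6 and 34.2 under R406, against 187, 204 and 205 with DMSO in MOLM-14. In KG-1 it read 71.6, 43.3 and 65.1 under R406, against 221, 207 and 231 with DMSO. Neither line had any overlap between treatments, and the R406 arrays of KG-1 were spread more widely than those of MOLM-14. The log2 fold change was -2.57 ± 0.12 in MOLM-14 (adjusted p = 3.94e-14) and -1.88 ± 0.12 in KG-1 (adjusted p = 2.29e-11), or -1.67 without KG-1 R406 replicate 2. In U937 and HL-60 it was -0.24 (adjusted p = 0.272) and -0.21 (adjusted p = 0.331), short of a call, although the arrays of the treatment groups did not overlap in either line. A second SLC19A1 probe set, of mean 58.4, was called lower in U937 (-0.35, adjusted p = 0.00579) but not in HL-60 (-0.14). Another, of mean 22.7, was called in neither (-0.35 and -0.28). SLC19A1 was also called lower in U937 with averaged probe sets (adjusted p = 0.00734) or only the U937 arrays (adjusted p = 0.0333). Its U937 call thus depends on the probe set and the fit. The effect differed between lines (F test, adjusted p = 6.14e-11).

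SLC5A6, the sodium-dependent carrier of biotin, pantothenate and lipoate, was lower in all 4 lines. Its arrays were 60.0, 63.1 and 80.2 under R406, against 223, 225 and 231 with DMSO in MOLM-14. The KG-1 arrays read 76.2, 77.5 and 90.1 under R406, against 258, 259 and 269 with DMSO. All R406 arrays of these lines were below all their DMSO arrays. U937 had 351.2, 337 and 307 under R406, against 492, 458 and 446 with DMSO. HL-60 had 222, 228 and 215 under R406, against 321, 276 and 329.9 with DMSO. U937 and HL-60 had no overlap either, with a smaller ratio. The log2 fold changes were -1.74 (adjusted p = 2.28e-13) in MOLM-14, -0.49 (adjusted p = 0.00110) in U937, -0.47 (adjusted p = 9.05e-04) in HL-60 and -1.68 (adjusted p = 1.37e-12) in KG-1. SLC52A2, a riboflavin carrier, was lower in all 4 lines by less, with log2 fold changes of -0.52 in MOLM-14, -0.33 in U937, -0.23 in HL-60 and -0.53 in KG-1. Its HL-60 arrays were 70.8, 68.2 and 77.4 under R406, against 81.8, 82.1 and 89.9 with DMSO. The HL-60 groups lay close together, and the call there (adjusted p = 0.0390) was lost in 5 of 6 fits that left out 1 HL-60 array, with adjusted p up to 0.176, and kept without R406 replicate 3. SLC19A2, a thiamine carrier, was 32.6, 26.2 and 23.5 under R406, against 76.1, 83.3 and 85.6 with DMSO in MOLM-14, where its log2 fold change was -1.55 (adjusted p = 1.11e-10). It was also lower in U937 (-0.48, adjusted p = 0.00916) and KG-1 (-0.40, adjusted p = 0.00791), calls that were lost without U937 DMSO replicate 1 or R406 replicate 3, and without KG-1 DMSO replicate 2. SLC23A2, which takes up ascorbate with sodium, was the vitamin carrier that rose. In MOLM-14 it had 158, 156 and 153 under R406, against 91.2, 89.4 and 93.1 with DMSO, and its log2 fold change was 0.76 (adjusted p = 5.87e-09) there and -0.01, 0.02 and 0.15 in U937, HL-60 and KG-1, none of which passed.

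Of 7 measured genes of folate use, all fell in KG-1 and MOLM-14, 2 in U937 and 1 in HL-60. Thymidylate synthase TYMS averaged 418 ± 21.9 under R406 and 2573 ± 201 with DMSO in MOLM-14 (SD, n = 3 each), a log2 fold change of -2.62 (adjusted p = 3.67e-13). The mitochondrial folate enzymes MTHFD2 and SHMT2 were both lower in U937 as well, with log2 fold changes of -0.53 (adjusted p = 7.49e-06) and -0.40 (adjusted p = 0.00126). SHMT2 was also the gene that fell in HL-60 (-0.31, adjusted p = 0.00847). In MOLM-14 and KG-1 the folate carrier SLC19A1 and these 7 genes were lower together.

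Zinc carriers numbered 10, with 5 lower and 1 higher in MOLM-14, 3 lower in U937, 2 lower in HL-60 and 5 lower in KG-1. The SLC39 (ZIP) family brings zinc into the cytosol, and the SLC30 (ZnT) family takes it out or into organelles. SLC39A14 (ZIP14), which carries zinc, manganese and iron that is not bound to transferrin, had the lowest log2 fold change of the 103 carriers for the mean of the lines, at -1.75 ± 0.06. In MOLM-14 its arrays read 82.9, 58.8 and 64.3 under R406, against 545, 515 and 520.3 with DMSO. In KG-1 they read 98.9, 64.1 and 102 under R406, against 482, 521 and 534 with DMSO. The R406 arrays of both lines lay far below all DMSO arrays. U937 had 352, 331 and 355 under R406, against 622, 579 and 577 with DMSO. HL-60 had 93.0, 94.9 and 104 under R406, against 162, 166 and 166 with DMSO. The groups were apart in both, with a smaller ratio than in MOLM-14 and KG-1. On the log2 scale the changes were -2.94 (adjusted p = 5.82e-15) in MOLM-14, -0.78 (adjusted p = 2.49e-04) in U937, -0.75 (adjusted p = 1.95e-04) in HL-60 and -2.55 (adjusted p = 2.74e-13) in KG-1. Without KG-1 R406 replicate 2 the KG-1 value was -2.34 (adjusted p = 1.16e-13).

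SLC39A4 (ZIP4), the zinc importer known from the intestine, had 125, 120.1 and 114 under R406, against 407, 394 and 377 with DMSO in MOLM-14, with no overlap. It fell there (-1.70, adjusted p = 1.92e-13), in HL-60 (-0.40, adjusted p = 0.00346) and in KG-1 (-0.67, adjusted p = 1.52e-06). SLC39A8 (ZIP8), a zinc, manganese and iron importer, was 283, 279 and 285 under R406, against 583, 577 and 606 with DMSO in MOLM-14. It fell in MOLM-14 (-1.06, adjusted p = 5.82e-13) and KG-1 (-0.47, adjusted p = 7.09e-07), and its groups overlapped in U937. SLC39A6 was lower in MOLM-14 (-0.38) and U937 (-0.31), the U937 call being lost without U937 DMSO replicate 1 or 3 or R406 replicate 2, and SLC30A5, which loads zinc into the secretory pathway, in MOLM-14 (-0.35) and KG-1 (-0.38). SLC30A3, SLC30A9, SLC39A1 and SLC39A7 were called in no line.

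SLC30A1 (ZnT1) exports zinc across the plasma membrane, and its transcription is known to rise with cytosolic zinc through the metal-sensing factor MTF1. Its MOLM-14 arrays were 627, 534 and 509 under R406, against 318, 326 and 353 with DMSO. Those of KG-1 were 119, 107 and 131 under R406, against 187, 185 and 195 with DMSO. The R406 arrays were above all DMSO arrays in MOLM-14 and below them all in KG-1. SLC30A1 had a log2 fold change of 0.74 ± 0.08 in MOLM-14 (adjusted p = 4.36e-08) and -0.67 ± 0.08 in KG-1 (adjusted p = 3.52e-07), and these effects differed by 1.40 (adjusted p = 2.82e-09). In U937 it was -0.27 (adjusted p = 0.0297), a call lost in 5 of 6 fits that left out 1 U937 array, with only the fit without DMSO replicate 2 keeping it, and in HL-60 0.01 (adjusted p = 0.972). Of 8 genes for metallothioneins, which buffer zinc and copper, and MTF1, 6 were lower in MOLM-14, 2 were higher in HL-60 and 7 were lower in KG-1. Of all genes, 25.0% were lower in MOLM-14, 7.19% higher in HL-60 and 20.9% lower in KG-1. MT1X had log2 fold changes of -0.93 (adjusted p = 2.82e-07) in MOLM-14 and -0.73 (adjusted p = 1.41e-05) in KG-1. In MOLM-14 SLC30A1 was thus higher beside 6 lower genes of these 8. In KG-1 SLC30A1 and 7 of the 8 were lower together.

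Sequences around the transcription start are shown for 4 of these genes, because SLC29A1, SLC5A6 and SLC25A15 fell in all 4 lines and SLC30A1 changed in both directions. Each run holds 250 bases before and 50 after the start, 5′ to 3′ in the direction of transcription, from RefSeq on GRCh38.p14. Capitals mark an E-box (CACGTG, the site of MYC and its relatives, its own reverse complement) in SLC29A1 and metal response elements (TGCACNC or TGCGCNC on either strand) in SLC25A15 and SLC30A1, and the SLC5A6 run holds neither.
SLC29A1, chr6:44219365-44219664, plus strand: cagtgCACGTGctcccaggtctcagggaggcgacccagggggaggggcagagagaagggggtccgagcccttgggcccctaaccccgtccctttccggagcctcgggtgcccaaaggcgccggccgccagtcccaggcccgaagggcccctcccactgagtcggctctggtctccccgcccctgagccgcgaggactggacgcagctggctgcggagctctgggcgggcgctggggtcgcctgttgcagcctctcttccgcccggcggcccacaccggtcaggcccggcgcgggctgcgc
SLC5A6, chr2:27212219-27212518, minus strand: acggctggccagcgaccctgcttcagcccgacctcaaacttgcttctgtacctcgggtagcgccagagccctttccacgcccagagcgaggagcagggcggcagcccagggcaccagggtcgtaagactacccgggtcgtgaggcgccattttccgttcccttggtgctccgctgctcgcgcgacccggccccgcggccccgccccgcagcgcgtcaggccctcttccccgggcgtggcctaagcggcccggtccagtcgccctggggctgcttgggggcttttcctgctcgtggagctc
SLC25A15, chr13:40789361-40789660, plus strand: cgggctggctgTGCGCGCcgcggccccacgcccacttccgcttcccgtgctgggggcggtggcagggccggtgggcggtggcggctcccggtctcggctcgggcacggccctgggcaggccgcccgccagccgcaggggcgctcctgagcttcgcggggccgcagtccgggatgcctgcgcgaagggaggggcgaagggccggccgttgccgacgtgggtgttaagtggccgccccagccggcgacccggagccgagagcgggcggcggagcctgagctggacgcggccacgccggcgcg
SLC30A1, chr1:211579112-211579411, minus strand: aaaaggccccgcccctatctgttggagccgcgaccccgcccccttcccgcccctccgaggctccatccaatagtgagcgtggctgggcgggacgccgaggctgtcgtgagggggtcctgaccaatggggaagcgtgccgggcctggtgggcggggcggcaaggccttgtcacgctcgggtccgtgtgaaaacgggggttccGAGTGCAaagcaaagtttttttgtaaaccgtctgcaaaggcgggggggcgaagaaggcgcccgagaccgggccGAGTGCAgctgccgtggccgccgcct

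RefSeq gave such windows for 87 of the 103 carriers and for 27305 promoters in all, which include genes not tested here. The E-box was found in 12 carriers (13.8%), against 7.43% of the 27305 promoters. A metal response element was found in 33 (37.9%) against 29.3%, and the ATF4-type element TGATGNAA, searched on both strands, in 3 (3.45%) against 3.67%. The E-box starts 245 bases before the start of SLC29A1. SLC30A1 has its metal response elements 49 bases before and 25 bases after the start. These are matches of letters and say nothing of binding in these cells, and no share was counted for the tested genes alone.

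Carriers of iron, copper and other metals numbered 5. SLC31A1 (CTR1), the copper importer of the plasma membrane, had 33.2, 39.3 and 41.6 under R406, against 89.7, 95.1 and 99.0 with DMSO in MOLM-14. In KG-1 it had 41.3, 24.8 and 48.9 under R406, against 91.0, 93.6 and 99.3 with DMSO. Both lines had a clear gap, and KG-1 R406 replicate 2 was the lowest array. SLC31A1 had a log2 fold change of -1.30 (adjusted p = 1.02e-07) in MOLM-14 and -1.33 (adjusted p = 1.08e-07) in KG-1, or -1.06 without that array, and the values of U937 (0.01) and HL-60 (-0.01) did not pass. SLC31A2, its intracellular relative, was higher in HL-60 (0.47, adjusted p = 0.0256), but that call was lost in 5 of 6 fits without 1 HL-60 array (adjusted p up to 0.0987) and kept without R406 replicate 1.

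SLC48A1 (HRG1), which moves haem out of the endolysosome, was higher in 3 lines. Its intensity was 56.6, 54.8 and 62.9 under R406, against 25.1, 31.4 and 28.9 with DMSO in MOLM-14. The U937 arrays read 59.5, 60.3 and 59.5 under R406, against 32.9, 37.9 and 40.4 with DMSO. In KG-1 it was 54.9, 89.3 and 59.0 under R406, against 43.6, 45.3 and 44.3 with DMSO, with KG-1 R406 replicate 2 well above the other arrays. The log2 fold changes were 1.01 (adjusted p = 1.77e-07) in MOLM-14, 0.68 (adjusted p = 6.45e-04) in U937 and 0.56 (adjusted p = 4.53e-04) in KG-1, where it was 0.35 (adjusted p = 0.00234) without replicate 2. SLC41A3, a member of a magnesium carrier family, rose in KG-1, with 195, 231 and 208 under R406, against 109.9, 95.7 and 108 with DMSO and a log2 fold change of 1.01 (adjusted p = 1.68e-08). Its smaller HL-60 rise (0.32, adjusted p = 0.0312) was lost in 5 of 6 fits without 1 HL-60 array and kept without DMSO replicate 2. SLC11A2 (DMT1), which carries ferrous iron, was higher in KG-1 (0.47, adjusted p = 0.0112), a call that ended without KG-1 R406 replicate 2 (adjusted p = 0.0759) or DMSO replicate 1 (adjusted p = 0.0689). Its probe set of mean 74.2 was called higher in MOLM-14 (0.65, adjusted p = 1.33e-04) and KG-1 (0.55, adjusted p = 9.93e-04). That of mean 48.2 was called higher in KG-1 only (0.35, adjusted p = 0.0477). That of mean 20.1 was called higher in MOLM-14 (0.28) and KG-1 (0.62) and lower in HL-60 (-0.33, adjusted p = 0.0391). With averaged probe sets SLC11A2 was called higher in MOLM-14 (0.33, adjusted p = 0.00130).

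Of 7 measured genes of iron uptake and storage, 4 were higher and 2 lower in MOLM-14, 1 higher in U937, 1 higher and 3 lower in HL-60, and 3 higher and 2 lower in KG-1. The transferrin receptor TFRC fell in MOLM-14 (-1.98, adjusted p = 3.53e-15), HL-60 (-0.34, adjusted p = 0.00644) and KG-1 (-0.84, adjusted p = 1.37e-08). HMOX1, which degrades haem, rose in all 4 lines, with log2 fold changes of 2.83 in MOLM-14, 1.38 in U937, 1.13 in HL-60 and 0.92 in KG-1. The importers SLC39A14 and TFRC thus fell while the haem carrier SLC48A1 and HMOX1 rose in MOLM-14 and KG-1. The ferrous iron carrier SLC11A2 did not fall with those importers, being called higher in KG-1 and, by some of its probe sets only, in MOLM-14. The mitochondrial iron importers (mitoferrins) were not alike. SLC25A37 was 116, 115 and 112 under R406, against 90.5, 87.0 and 91.1 with DMSO in MOLM-14, where it rose (0.35, adjusted p = 3.83e-04), and 57.9, 69.2 and 58.4 under R406, against 83.6, 96.7 and 85.3 with DMSO in KG-1, where it fell (-0.51, adjusted p = 4.89e-06). SLC25A28 was called in KG-1 alone (0.40, adjusted p = 0.0131), and this call ended without KG-1 R406 replicate 2 (adjusted p = 0.0758).

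Mitochondrial carriers formed the largest class, with 24 genes. In MOLM-14 6 were higher and 12 lower, in U937 2 were lower, in HL-60 1 was higher and 4 lower, and in KG-1 5 were higher and 14 lower. The lower shares of 8.33% in U937 and 16.7% in HL-60 lay near the 8.32% and 12.6% of genes of like level, while the 12 and 14 lower carriers of MOLM-14 and KG-1 compare with 38.6% and 32.5%. The class median log2 fold change stood at -0.26 in MOLM-14, 0.00 in U937, -0.01 in HL-60 and -0.35 in KG-1. SLC25A15, the ornithine carrier that links the mitochondrial and cytosolic steps of the urea cycle and polyamine supply, fell in all 4 lines. Its arrays were 208, 224 and 199 under R406, against 555, 536 and 516 with DMSO in MOLM-14. The KG-1 arrays read 115, 104 and 105 under R406, against 304, 276 and 282 with DMSO. U937 had 154, 146 and 148 under R406, against 193, 201 and 189 with DMSO, and HL-60 had 118, 126 and 117 under R406, against 157, 182 and 161 with DMSO. No R406 array reached a DMSO array of the same line. MOLM-14 had a log2 fold change of -1.35 (adjusted p = 1.13e-13), U937 of -0.38 (adjusted p = 8.41e-04), HL-60 of -0.47 (adjusted p = 4.61e-05) and KG-1 of -1.40 (adjusted p = 2.36e-13).

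SLC25A32, which carries folate and flavin adenine dinucleotide into mitochondria, fell in all 4 lines too. It read 222, 214 and 226 under R406, against 559.5, 595 and 599 with DMSO in MOLM-14. The KG-1 arrays read 459.5, 432 and 439.5 under R406, against 1011, 1062 and 970.0 with DMSO. In U937 it read 408, 403 and 409 under R406, against 595, 553 and 602 with DMSO, and in HL-60 188, 189.8 and 193 under R406, against 238, 258 and 266 with DMSO. The groups were apart in each line, and the spread within the R406 groups was small. SLC25A32 had log2 fold changes of -1.40 (adjusted p = 4.81e-15) in MOLM-14, -0.52 (adjusted p = 5.00e-06) in U937, -0.41 (adjusted p = 3.63e-05) in HL-60 and -1.19 (adjusted p = 3.27e-13) in KG-1. Among carriers of respiratory substrates, the citrate carrier SLC25A1 had log2 fold changes of -1.18 (adjusted p = 1.69e-11) in MOLM-14 and -0.35 (adjusted p = 8.93e-04) in KG-1. Its HL-60 call (-0.24, adjusted p = 0.0497) was lost in 4 of 6 fits without 1 HL-60 array (adjusted p up to 0.226) and kept without DMSO replicate 3 or R406 replicate 1. It was also lost with only the HL-60 arrays (adjusted p = 0.0742). The dicarboxylate carrier SLC25A10 was lower in MOLM-14 (-1.25), HL-60 (-0.36) and KG-1 (-0.75), and the oxoglutarate carrier SLC25A11 in MOLM-14 (-1.17) and KG-1 (-0.48).

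The aspartate-glutamate carriers of the malate-aspartate shuttle differed from each other. SLC25A13 (citrin) fell in MOLM-14 (-0.53, adjusted p = 9.59e-06) and KG-1 (-0.88, adjusted p = 9.49e-09). SLC25A12 was called higher in MOLM-14 (0.24, adjusted p = 0.0109) and lower in KG-1 (-0.27, adjusted p = 0.00579), but its other probe set was called lower in MOLM-14, at -0.40, so its direction there depends on the probe set. It was the only 1 of 26 carriers with several probe sets at 20 or more whose calls opposed each other within a line. Of the adenine nucleotide carriers, SLC25A5 was lower in MOLM-14, with 2683, 2592 and 2437 under R406, against 3765, 3815 and 3555 with DMSO, a log2 fold change of -0.53 (adjusted p = 1.16e-06). It was lower in KG-1 as well (-0.46, adjusted p = 1.13e-05), as was SLC25A4, with -0.98 in MOLM-14 and -0.42 in KG-1. The phosphate carrier SLC25A3, with a mean of 4684 over the 24 arrays, was called in no line, and its log2 fold changes were -0.10 in MOLM-14, 0.06 in U937, 0.00 in HL-60 and -0.05 in KG-1.

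SLC25A20, the carnitine-acylcarnitine carrier that admits fatty acids for oxidation, was the mitochondrial carrier with the highest rise. It read 130.4, 102 and 121 under R406, against 38.01, 52.9 and 43.4 with DMSO in MOLM-14, with no overlap, and its log2 fold change was 1.38 (adjusted p = 2.16e-10). In KG-1 it was 0.35 (adjusted p = 0.0116), which did not pass without KG-1 R406 replicate 2 (adjusted p = 0.0667). SLC25A36, a pyrimidine nucleotide carrier, was higher in MOLM-14 (0.54) and KG-1 (0.68), and so was the calcium-regulated ATP-magnesium carrier SLC25A24 (0.71 and 0.32). SLC25A16 was called higher in both lines by a probe set that can bind related transcripts, while its dimmer probe sets opposed it. The probe set with a mean of 18.3 was called lower in KG-1 (-0.45, adjusted p = 0.00218), and that with a mean of 11.3 in MOLM-14 (-0.85, adjusted p = 1.31e-05) and KG-1 (-0.60, adjusted p = 9.64e-04), so the direction of SLC25A16 depends on the probe set. With averaged probe sets its higher call for the mean of the lines was lost (adjusted p = 0.705). Of 17 measured genes of the mitochondrial import machinery, pores and pyruvate entry, 2 were higher and 15 lower in MOLM-14, 9 lower in U937, 7 lower in HL-60 and 13 lower in KG-1. The import pore TOMM40 had log2 fold changes of -2.02 in MOLM-14 and -1.65 in KG-1, and TIMM13, a chaperone of carrier import between the membranes, was lower in all 4 lines (-1.17 in MOLM-14, -0.39 in U937, -0.64 in HL-60 and -1.65 in KG-1).

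Sugar carriers numbered 7. SLC2A3 (GLUT3), a glucose carrier of high affinity, changed in every line and had the widest range between lines. In HL-60 its intensity was 388, 367 and 409 under R406, against 90.1, 85.3 and 90.8 with DMSO. In MOLM-14 it was 145, 152 and 146 under R406, against 327, 289.6 and 292 with DMSO. U937 had 45.0, 46.8 and 44.6 under R406, against 75.8, 89.2 and 85.0 with DMSO, and KG-1 had 21.6, 14.1 and 20.7 under R406, against 49.95, 42.3 and 34.9 with DMSO. HL-60 alone had its R406 arrays above the DMSO arrays, and the other lines had them below without overlap. The log2 fold change was 2.12 ± 0.12 in HL-60 (adjusted p = 7.66e-11), against -1.03 (adjusted p = 1.28e-07) in MOLM-14, -0.86 (adjusted p = 5.44e-05) in U937 and -1.14 (adjusted p = 4.71e-08) in KG-1. The HL-60 effect differed from each other effect (adjusted p = 1.34e-12 for MOLM-14, 1.03e-10 for U937 and 4.18e-12 for KG-1), while no pair among the other lines passed. Its 5 probe sets gave values of 1.27 to 2.12 in HL-60 and negative values in the other lines, and some may bind a related glucose carrier.

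SLC2A5 (GLUT5), the fructose carrier, showed another order. In MOLM-14 it had 242, 195 and 225 under R406, against 87.3, 87.2 and 103 with DMSO, and in KG-1 335, 287 and 316 under R406, against 161, 166 and 161 with DMSO. In HL-60 it had 96.1, 81.8 and 90.5 under R406, against 152, 154 and 156 with DMSO. R406 arrays were above all DMSO arrays in MOLM-14 and KG-1 and below them in HL-60. This gave log2 fold changes of 1.24 (adjusted p = 1.45e-11) in MOLM-14, 0.94 (adjusted p = 3.57e-09) in KG-1 and -0.78 (adjusted p = 7.19e-07) in HL-60, with -0.22 (adjusted p = 0.113) in U937. By these probe sets, SLC2A3 was thus higher and SLC2A5 lower in HL-60, and in MOLM-14 and KG-1 the reverse held. A second SLC2A5 probe set, of mean 78.1, was not called in MOLM-14 (0.17, adjusted p = 0.168). It was called higher in KG-1 (0.36, adjusted p = 0.00578) and lower in HL-60 (-0.72, adjusted p = 2.83e-05), so the MOLM-14 rise depends on the probe set. SLC37A4, the glucose-6-phosphate carrier of the endoplasmic reticulum, was lower in MOLM-14 (-0.72, adjusted p = 4.91e-07), HL-60 (-0.41, adjusted p = 0.00331) and KG-1 (-0.79, adjusted p = 1.69e-07). A second SLC37A4 probe set, of mean 33.5, was called lower in KG-1 (-0.72, adjusted p = 3.75e-05) but not in MOLM-14 (-0.02) or HL-60 (-0.20). SLC37A1, which also carries sugar phosphates, was higher in KG-1 (0.52, adjusted p = 0.00126) and in MOLM-14 (0.34, adjusted p = 0.0220), where the call ended without DMSO replicate 2 or 3 or R406 replicate 1 or 3. SLC50A1, a Golgi sugar carrier, was higher in KG-1 (0.52, adjusted p = 3.09e-06) and lower in HL-60 (-0.32, adjusted p = 0.00383). SLC2A6 and SLC2A9 were called in no line.

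**Figure D4:**
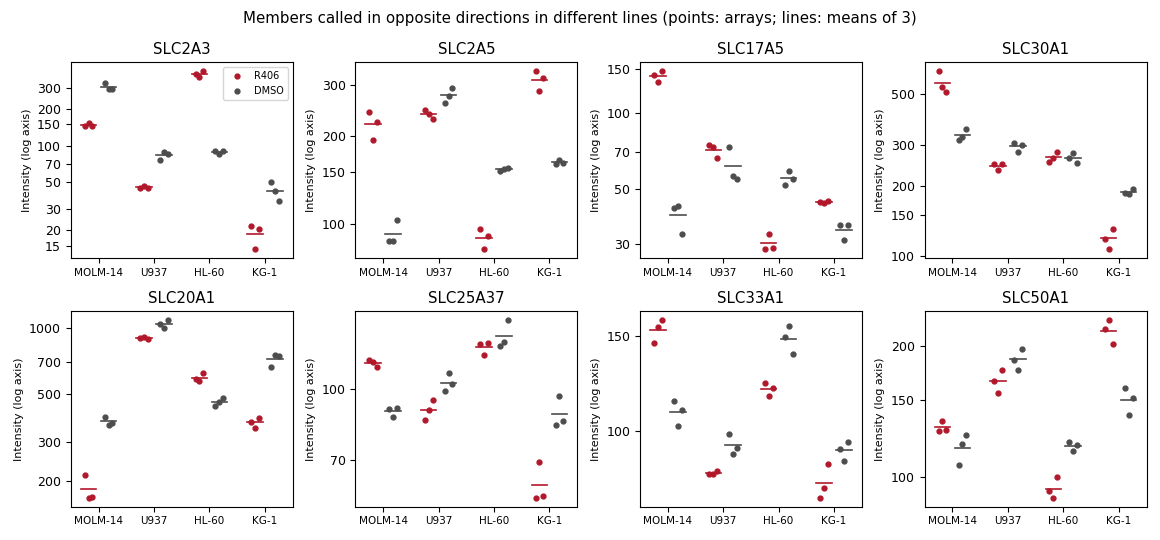
Intensity on a log axis of 8 carriers called in opposite directions in different lines, R406 (red) left of DMSO (grey); each point is 1 array and each bar the mean of 3. The R406 points of SLC2A3 lie above DMSO in HL-60 only, and those of SLC17A5 and SLC2A5 lie below DMSO in HL-60 and above it in MOLM-14 and KG-1.

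SLC20A1 (PiT1), the sodium-dependent phosphate importer that also serves as a retrovirus receptor, fell in MOLM-14 and KG-1. Its arrays were 214, 167 and 169 under R406, against 394, 360.1 and 368 with DMSO in MOLM-14. In HL-60 they were 582, 575 and 624 under R406, against 440.3, 458 and 477 with DMSO, with R406 above DMSO. The log2 fold changes were -1.03 (adjusted p = 2.00e-10) in MOLM-14, -0.96 (adjusted p = 1.49e-09) in KG-1 and 0.37 (adjusted p = 0.00252) in HL-60. Its relative SLC20A2 was lower in MOLM-14 (-0.53, adjusted p = 0.00189), and the sulfate carrier SLC26A2 in MOLM-14 (-0.29, adjusted p = 0.00300) and KG-1 (-0.44, adjusted p = 4.90e-05). Among carriers of other organic solutes, SLC17A5 (sialin), which exports sialic acid from lysosomes, had 143, 133 and 147 under R406, against 42.0, 42.6 and 32.9 with DMSO in MOLM-14. In HL-60 it had 28.8, 33.1 and 29.0 under R406, against 51.8, 59.1 and 54.8 with DMSO. The arrays did not overlap in either line and lay in opposite orders. Its log2 fold change was 1.83 (adjusted p = 7.82e-13) in MOLM-14, -0.85 (adjusted p = 4.85e-06) in HL-60 and 0.37 (adjusted p = 0.00594) in KG-1, and the difference between MOLM-14 and HL-60 was 2.68 (adjusted p = 1.70e-12). SLC33A1, the acetyl-CoA carrier of the endoplasmic reticulum, was higher in MOLM-14 (0.50, adjusted p = 9.37e-07) and lower in HL-60 (-0.31, adjusted p = 0.00265) and KG-1 (-0.20, adjusted p = 0.0177). A second SLC33A1 probe set, of mean 51.3, was also called higher in MOLM-14 (0.78). It was not called in HL-60 (-0.29, adjusted p = 0.0654) or KG-1 (0.08, adjusted p = 0.604), so the lower calls of SLC33A1 depend on the probe set. SLC22A4, a carrier of ergothioneine, was called in MOLM-14 alone, where it was lower (-0.92, adjusted p = 8.74e-06). SLC47A1 (MATE1), an exporter of organic cations, had a log2 fold change of -1.22 in MOLM-14, in a gene kept through its MOLM-14 DMSO group.

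Ion carriers numbered 9, with 6 higher and 2 lower in MOLM-14, 1 higher in U937, and 5 higher and 1 lower in KG-1. SLC24A1, a potassium-dependent exchanger of sodium and calcium, had 83.9, 105 and 98.9 under R406, against 48.5, 51.0 and 35.4 with DMSO in KG-1. The U937 arrays read 87.6, 78.8 and 85.7 under R406, against 49.5, 51.1 and 55.5 with DMSO. The groups were apart in both lines. Its log2 fold changes were 1.09 (adjusted p = 2.07e-07) in KG-1, 0.81 (adjusted p = 9.44e-06) in MOLM-14 and 0.68 (adjusted p = 9.99e-04) in U937. SLC8B1, the sodium-calcium exchanger of mitochondria, rose in MOLM-14 (1.15, adjusted p = 7.52e-09) and KG-1 (0.67, adjusted p = 2.87e-05), and so did the sodium-proton exchanger SLC9A8 (0.61, adjusted p = 7.73e-06 and 0.72 (adjusted p = 1.24e-06)) and SLC9D1 (1.36, adjusted p = 2.21e-08 and 0.54 (adjusted p = 0.00305)). SLC12A7, a potassium-chloride cotransporter, was 1484, 1807 and 939 under R406, against 598, 853 and 792 with DMSO in KG-1, a wide spread within the R406 group. Its log2 fold change was 0.88 (adjusted p = 0.00475) there, or 0.67 (adjusted p = 0.0452) without KG-1 R406 replicate 2, and 0.89 (adjusted p = 0.00359) in MOLM-14.

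The lower calls among ion carriers need care. SLC12A4, another potassium-chloride cotransporter, stood on a probe set with a mean of 926 that read 90.5, 104 and 156 under R406, against 968, 1078 and 963 with DMSO in MOLM-14, a log2 fold change of -3.13 (adjusted p = 1.92e-13). This was the lowest value of the 103 carriers in that line. The other 4 probe sets listed for SLC12A4 had means of 7.13 to 16.03 and none was called lower in any line, while 1 of them was higher in KG-1 (0.83). Over the 24 arrays, which include all 8 groups, the bright probe set correlated at r = 0.98 with both probe sets it was nearest to, which are those of the replication gene MCM4, and at r = -0.55 to 0.19 with the other SLC12A4 probe sets. Whether the bright probe set measures SLC12A4 was not tested. Without SLC12A4 the lower calls numbered 43 in MOLM-14, 39 in KG-1 and 44 for the mean of the lines. SLC4A7, a sodium bicarbonate cotransporter, was called lower in MOLM-14 at -0.34 by its brighter probe set, of mean 111, and at -2.04 by another, of mean 87.1.

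**Figure D5:**
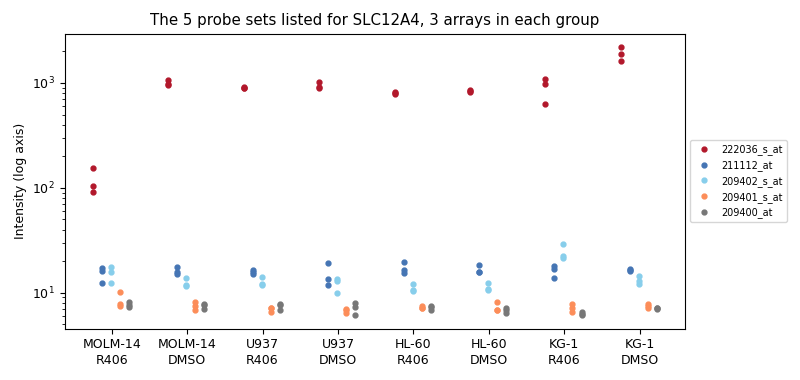
Intensity on a log axis of the 5 probe sets listed for SLC12A4 in the 8 groups, R406 left of DMSO for each line; each point is 1 array. The upper probe set is lower in the MOLM-14 R406 group than in any other group, and the 4 dim ones stay far below it throughout.

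Nucleotide sugar carriers of the SLC35 family supply glycosylation in the Golgi and endoplasmic reticulum, and 11 were measured. In MOLM-14 5 were higher and 4 lower, and in KG-1 4 were higher and 1 lower. SLC35A1, the CMP-sialic acid carrier, had 520.0, 507 and 525 under R406, against 304, 310.4 and 294 with DMSO in MOLM-14, with no overlap. It rose in MOLM-14 (0.77, adjusted p = 9.73e-11) and KG-1 (0.21, adjusted p = 0.00428), and SLC35A5 did too (0.85, adjusted p = 5.83e-09 and 0.78 (adjusted p = 4.13e-08)). The KG-1 call of SLC35A1 was lost with median centring (adjusted p = 0.0594) and with only the KG-1 arrays (adjusted p = 0.0628). SLC35B1, which exchanges ATP and ADP across the membrane of the endoplasmic reticulum, was 177, 115 and 183 under R406, against 361, 373 and 350.7 with DMSO in MOLM-14 and fell there (-1.21, adjusted p = 2.49e-09) and in KG-1 (-0.71, adjusted p = 1.13e-05). SLC35H1 (also SLC35C2), linked to GDP-fucose, was lower in MOLM-14 (-0.91, adjusted p = 4.53e-07), and SLC35D1, a carrier of UDP-glucuronic acid, was lower in MOLM-14 (-0.42, adjusted p = 0.00196) and higher in KG-1 (0.51, adjusted p = 3.93e-04). SLC35E1 was called higher in MOLM-14 and KG-1 by a probe set that can bind related transcripts, and neither of its other probe sets passed.

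Among lipid carriers, SLC27A2, an acyl-CoA synthetase that takes up very long chain fatty acids, measured 154, 129 and 146 under R406, against 343, 351.2 and 331 with DMSO in KG-1. It fell in KG-1 (-1.25, adjusted p = 8.54e-11), MOLM-14 (-1.30, adjusted p = 1.85e-11) and U937 (-0.64, adjusted p = 5.02e-05). SLC27A5, its relative in bile acid metabolism of the liver, was 36.1, 37.5 and 29.3 under R406, against 63.0, 74.2 and 58.4 with DMSO in HL-60 and fell in HL-60 (-0.91, adjusted p = 1.15e-04), U937 (-0.64, adjusted p = 0.00540) and KG-1 (-0.76, adjusted p = 1.26e-04). Its MOLM-14 groups overlapped (-0.11, not called). SLC27A3 was higher in MOLM-14 (0.74). The monocarboxylate carriers split in MOLM-14. SLC16A5 had 59.1, 71.4 and 48.6 under R406, against 18.4, 14.98 and 14.3 with DMSO there, a log2 fold change of 1.84 in a gene kept through that R406 group. SLC16A7 (MCT2) fell (-1.41, adjusted p = 3.20e-07). SLC16A10, a carrier of aromatic amino acids and thyroid hormone, averaged 25.2 ± 4.60 under R406 and 52.4 ± 15.3 with DMSO in KG-1 (SD, n = 3 each) and was lower there (limma, adjusted p = 1.17e-04), and the lysosomal amino acid carrier SLC36A1 was lower in MOLM-14 (-0.46) and KG-1 (-0.42).

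SLC15A2 (PEPT2), the peptide carrier, had 164, 304 and 218 under R406, against 76.6, 85.4 and 77.4 with DMSO in KG-1, where replicate 2 was the highest array. Its log2 fold change was 1.46 (adjusted p = 8.38e-08) in KG-1, or 1.24 without replicate 2, and 0.78 (adjusted p = 2.32e-04) in MOLM-14. Of carriers with an unsettled or little studied substrate, SLC46A3, a lysosomal protein, read 90.9, 121 and 74.5 under R406, against 35.5, 32.2 and 30.5 with DMSO in KG-1. The MOLM-14 arrays read 36.8, 33.6 and 38.2 under R406, against 10.5, 16.5 and 10.8 with DMSO. The log2 fold changes were 1.49 in KG-1 (1.31 without R406 replicate 2) and 1.48 in MOLM-14, in a gene kept through its KG-1 R406 group. SLC67A1 (formerly SLC22A18), a gene of an imprinted region, was 215, 180.5 and 211 under R406, against 102, 123 and 114 with DMSO in U937. The KG-1 arrays read 97.7, 167 and 102 under R406, against 48.0, 48.1 and 55.5 with DMSO. It rose in MOLM-14 (1.12, adjusted p = 9.99e-07), U937 (0.84, adjusted p = 7.56e-04) and KG-1 (1.22, adjusted p = 4.82e-07, and 0.97 without R406 replicate 2), was 0.33 (adjusted p = 0.178) in HL-60, and had the highest log2 fold change for the mean of the lines, 0.88 ± 0.08. SLC35F2 fell in MOLM-14 (-0.44), U937 (-0.44) and KG-1 (-1.23, adjusted p = 7.97e-11). SLC2A4RG and SLC4A1AP meet the rule by symbol but are no transporters. SLC2A4RG, a regulator of the glucose carrier gene SLC2A4, was higher in MOLM-14 (0.42) and KG-1 (0.28) and lower in HL-60 (-0.43), with the KG-1 call lost without DMSO replicate 2 or R406 replicate 1, with median centring (adjusted p = 0.0926) and with only the KG-1 arrays (adjusted p = 0.0855).

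Across lines, 6 of the 103 carriers were lower in all 4, where 1.79% of all genes and 2.98% of genes at 20 or more were. They were SLC25A15, SLC25A32, SLC29A1, SLC39A14, SLC52A2 and SLC5A6. Without HL-60 DMSO replicate 2 the HL-60 calls of SLC29A1 (adjusted p = 0.0524) and SLC52A2 (adjusted p = 0.0599) were lost, which left 4. None was higher in all 4 lines, where 1.05% of all genes and 1.77% of those at 20 or more were. Without KG-1 R406 replicate 2 the same 6 and SLC35F2 were lower in all 4 lines, and SLC67A1 was higher in all 4. In MOLM-14 and KG-1 together, 33 carriers were lower in both (16.1% of all genes, 26.2% of genes at 20 or more) and 20 were higher in both (16.5% and 25.8%), and 5 were called in opposite directions. Called higher in 1 line and lower in another were 11 carriers, against 7.28% of all genes and 11.5% of genes at 20 or more, a share near the latter. They were SLC17A5, SLC20A1, SLC25A12, SLC25A37, SLC2A3, SLC2A4RG, SLC2A5, SLC30A1, SLC33A1, SLC35D1 and SLC50A1. A further 15 carriers were called in no line.

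The lines differed before treatment, given here as a description because the members were kept by their level. The range of the DMSO means between lines had a median of 1.11 (log2) over the 103 carriers and was over 1 for 59 of them. In MOLM-14, SLC47A1 read 99.3, 112 and 104 with DMSO and SLC35D2 read 91.8, 104 and 73.3, both kept through that line, while SLC35D2 averaged under the lowest array median with DMSO in every other line. SLC2A3 and SLC27A3 also had their highest DMSO level in MOLM-14. U937 was highest for SLC25A12, with 521, 489 and 479 and 1.501 above the next line, and for SLC25A24, SLC10A3 and SLC67A1. HL-60 was highest for the monocarboxylate carrier SLC16A7, with 196, 133 and 174 and 1.79 above the next line, for SLC25A10, SLC36A1 and SLC31A2. KG-1 was highest for SLC12A7, with 598, 853 and 792 and 2.47 above the next line, for SLC46A3, SLC2A6 and SLC25A20.

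The members nearest above the level of 20 were SLC16A5 (mean 21.0), SLC67A2 (24.1) and SLC68A1 (24.6), and the nearest below were SLC22A5 (19.1), SLC4A2 (18.9) and SLC67A1-AS (18.9), an antisense transcript. The myeloid genes SLC11A1 and SLC15A3 were also below, with means of 15.8 and 17.3. SLC40A1, SLC25A6, SLC15A4, SLC37A2, SLC16A6 and SLC44A1 were not analysed here. Of the 103 members, 45 stood on probe sets of a type that can bind transcripts of related genes, so values of close paralogs may be mixed.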

How the data were processed

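RNA of 24 samples was hybridised to Affymetrix arrays, and the deposited intensity values are linear and were made with RMA, per the submitters' processing notes; further settings are not given in the sources used here. Of 22277 probe sets, 62 controls, 568 with several symbols and 1923 without one were left out. The remaining 19724 covered 12165 genes, each represented by its probe set of highest mean intensity.

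From the deposited intensities, log2(intensity + 1) entered a limma model (version 3.58.1, R 4.3.3) with 1 mean per line and treatment (8 groups of 3 arrays, 16 residual degrees of freedom). Contrasts were R406 minus DMSO in each line, their mean over the lines, and a moderated F test between lines. P-values were adjusted by Benjamini-Hochberg over all genes, and calls use an adjusted p under 0.05. Further probe sets of a gene were read from a separate fit of the 19724 probe sets, with p-values adjusted over those. Near the threshold a call can differ between the gene fit and the probe set fit. Pairwise differences between lines were adjusted over all genes within each pair. The added 1 understates changes of dim probe sets. The fit was tested on simulated data.

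The members, the substrate classes and the partner and marker lists were chosen with earlier results of these data known. Genes were named by a rule: in each line the highest and lowest called changes without overlap of arrays, those called in all lines, those with the widest range between lines, all zinc, metal and vitamin carriers, the leading members of other classes and a list of carriers known in myeloid or metabolic biology. SLC25A28, SLC25A23, SLC66A2 and SLC67A2, and a few others given with calls only, were named after their values were seen. Same-numbered arrays did not pair (correlations of -0.08 to 0.07), so no block was used. Alternatives were another normalization, centring, pseudocount (16), intensity minimum (50), a filter on dim genes, averaged probe sets, a replicate block, a fit per line and each array left out. SLC12A4 and KG-1 R406 replicate 2 were left out as alternatives added after seeing the data.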

Additional observations from a re-analysis of the deposited data

Results flagged for a closer look

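The effect of R406 differed between lines by the moderated F test for 16 carriers, either with opposite calls in different lines or among the 8 widest ranges between the lowest and the highest log2 fold change. SLC2A3 had a range of 3.26 (adjusted p = 5.70e-13), higher in HL-60 and lower elsewhere. SLC12A4 had a range of 3.07 (adjusted p = 2.92e-10), on the probe set whose target was not tested. SLC17A5 ranged over 2.68 (adjusted p = 1.49e-11) and SLC2A5 over 2.02 (adjusted p = 4.56e-12), both higher in MOLM-14 and KG-1 and lower in HL-60.

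Carriers called lower in at least 2 lines with unequal size were SLC19A1 with a range of 2.36 (adjusted p = 6.14e-11), SLC29A1 with 2.36 (adjusted p = 3.87e-11) and SLC39A14 with 2.18 (adjusted p = 1.44e-10). SLC29A3, called in MOLM-14 alone, had a range of 1.92 (adjusted p = 1.62e-09).

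Smaller ranges with opposite calls were those of SLC20A1 at 1.40 (adjusted p = 9.07e-10), SLC30A1 at 1.40 (adjusted p = 5.35e-09), SLC35D1 at 0.93 (adjusted p = 1.71e-04) and SLC25A37 at 0.86 (adjusted p = 4.16e-06). SLC50A1 had 0.85 (adjusted p = 1.64e-06), SLC2A4RG 0.85 (adjusted p = 5.37e-05) and SLC33A1 0.81 (adjusted p = 4.90e-07). SLC25A12 had the smallest at 0.50 (adjusted p = 0.00324), and its probe sets opposed each other in MOLM-14.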

How the results depend on the processing

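Among the values of single carriers run under the alternatives, which cover part of the 103 carriers, no called value changed direction. Of 5084 log2 fold changes under an alternative, 83 had the other sign, all of values that were called neither with all arrays nor under that alternative, such as SLC25A3 in KG-1 (0.01 without R406 replicate 2, against -0.05). Of 5564 values of single carriers under an alternative, 5425 kept their side of the threshold, 94 lost the call and 45 gained one. The KG-1 calls of SLC25A23, SLC25A28, SLC66A2 and SLC67A2, lost without KG-1 R406 replicate 2, are not among these values. The totals therefore do not stand for all 103 carriers. Counts of calls moved by more than 1.5 times in 2 cases: carriers higher in U937 numbered 8 when only the arrays of U937 were fitted, against 3, and carriers higher in HL-60 numbered 2 to 3 without any 1 of the 6 HL-60 arrays, against 5. The cause was not tested. Without 1 array, higher and lower calls ranged over 30 to 35 and 42 to 44 in MOLM-14, 3 to 4 and 10 to 14 in U937, 14 to 17 lower in HL-60, 23 to 29 and 39 to 41 in KG-1, 28 to 31 and 43 to 45 for the mean, and 70 to 78 for the difference between lines. The replicate block, whose numbers did not pair the arrays, gave 33 higher and 43 lower in MOLM-14 and 4 and 13 in U937, and ended the calls of SLC25A1 and SLC25A44 in HL-60 (adjusted p = 0.0624 and 0.0816), of SLC30A1 in U937 (adjusted p = 0.0647) and of SLC30A9 for the mean of the lines (adjusted p = 0.0738). SLC12A4's KG-1 call was lost with averaged probe sets (adjusted p = 0.162, limma). Changes of dim probe sets are understated by the added 1.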
